A study of Bos taurus with 12 samples.

Results

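FABP4, fatty acid binding protein 4, was examined as a single gene in bovine stromal vascular cells (SVC) kept for 12 days in 4 differentiation media. Its values are those of 1 row, ENSBTAG00000037526, of the 22372 genes in the deposited expression table, taken by its identifier. SVC from subcutaneous brisket fat of 3 Belgian Blue donors (A, B and C) were differentiated in serum-free reduced differentiation medium (rDM), or in rDM from which insulin (rDM 0% Ins), rosiglitazone (rDM 0% Ros), or hydrocortisone together with progesterone (rDM 0% HC/PR) had been left out, which gave 1 library per donor and medium and 12 libraries in all. Every other agent of rDM was present in each deprived medium, and the libraries used here hold no cells before differentiation and none without any inducer. The labels give no sex or age, and the methods name female animals of 2 to 6 years in one place and both sexes in another, so neither is used here. Each donor was also 1 batch of mRNA extraction and cDNA making, so donor and batch cannot be told apart. The tables used here do not pair Ensembl identifiers with symbols, so neither the symbol of this row nor the markers of the labelled cell type, MSC, could be looked up. FABP4 is the name under which the row was selected.

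FABP4 is a small cytoplasmic protein that binds long-chain fatty acids and carries them between membranes, lipid droplets and the nucleus. It is among the most abundant proteins of mature adipocytes and serves as a marker of late differentiation, although macrophages and some endothelial cells also make it. Its gene is a classical target of PPARγ, the nuclear receptor that directs adipogenesis and that rosiglitazone activates. Insulin acts through its own receptor and drives glucose uptake and lipid synthesis in adipocytes, whereas hydrocortisone is a glucocorticoid and progesterone a progestin, steroid hormones that act through nuclear receptors. In the RefSeq annotation of the bovine assembly ARS-UCD2.0, FABP4 lies in a cluster of its own family. FABP9, PMP2 and FABP5 follow each other on one side and FABP12 adjoins it on the other.

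The level of FABP4 was given in CPM, the reads of the gene scaled to the same total of reads assigned to genes in every library, after the authors' batch correction. In rDM, FABP4 stood at 33216 CPM in donor A, 33949 CPM in donor B and 31799 CPM in donor C, with a mean of 32988 ± 1093 (SD, n = 3). In rDM 0% HC/PR it stood at 21485, 24360 and 24388 CPM in donors A, B and C, with a mean of 23411 ± 1668 (SD, n = 3). In rDM 0% Ins it stood at 16214, 9649 and 20272 CPM, with a mean of 15378 ± 5360 (SD, n = 3). Donor B without insulin was the lowest of the 9 libraries of these media. In rDM 0% Ros the same donors gave 128.9, 174.5 and 325.1 CPM, with a mean of 209.5 ± 103 (SD, n = 3). Relative to rDM, the mean reached 71.0% in the absence of HC/PR, 46.6% in that of insulin and 0.635% in that of rosiglitazone. No library without rosiglitazone came near any library with it. These are bulk samples, in which fewer adipocytes and less FABP4 mRNA per adipocyte cannot be told apart.

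**Figure D1:**
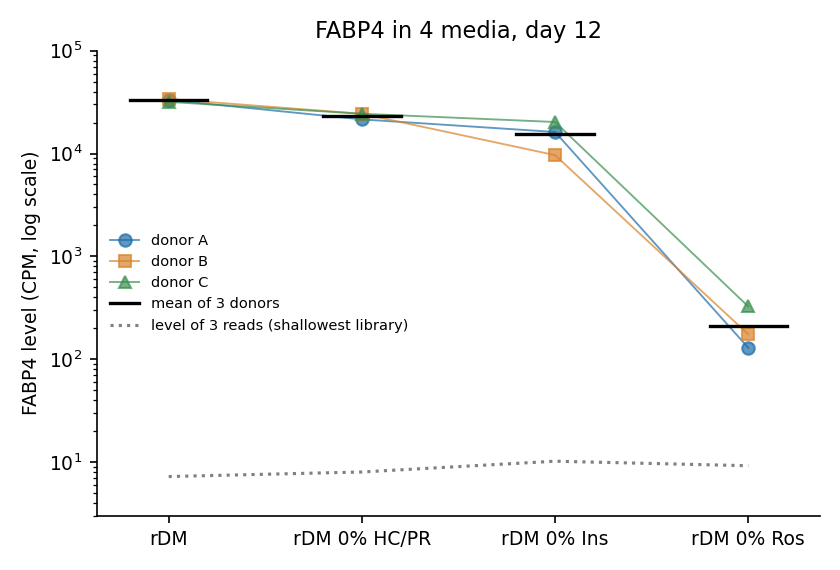
FABP4 level in CPM (log axis) in the 4 media at day 12, with 1 point per donor joined across media, black bars for the mean of 3 donors and a dotted line for the level of 3 reads in the shallowest library of each medium. The libraries with rosiglitazone lie between 9649 and 33949 CPM, and the 3 libraries without it lie between 128.9 and 325.1 CPM.

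The reads behind these levels were many in the libraries with rosiglitazone and far fewer in those without it. Recovered from the corrected table, and thus after its adjustment of the counts, the libraries held between 295288 and 1107442 reads assigned to genes, of which FABP4 took 13237 to 36785 in rDM, 9157 to 12939 without HC/PR, 4321 to 9003 without insulin and 57 to 124 without rosiglitazone. In rDM, 3.32% of the reads of donor A (Wilson 95% interval 3.29% to 3.36%), 3.39% of those of donor B (3.35% to 3.44%) and 3.18% of those of donor C (3.13% to 3.23%) came from this gene. About 1 read in 30.3 was therefore FABP4, against 1 in 42.7 without HC/PR, 1 in 65.0 without insulin and 1 in 4773 without rosiglitazone, taken from the mean levels. The share without rosiglitazone was 0.0129% (0.0102% to 0.0163%) in donor A, 0.0174% (0.0135% to 0.0226%) in donor B and 0.0325% (0.0273% to 0.0388%) in donor C. Donor C was the highest of the 3 here but the lowest before batch correction, as described further on, from 23 estimated reads in place of the 124 of the corrected table. The intervals cover counting error of the corrected reads only, not the correction itself, and reads copied by PCR are not independent molecules.

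FABP4 did not vanish without rosiglitazone. Its level there was 22.7, 19.0 and 41.3 times the level of 3 reads in donors A, B and C, from 68, 57 and 124 corrected reads. Before correction the matched transcript had 135, 194 and 23 estimated reads in the same libraries, with donor C the lowest. The corrected level was 8.50, 11.4 and 20.7 times the median of the genes with at least 1 read in the same library. By reads, which were not divided by gene length, since a long read stands for 1 cDNA molecule, FABP4 ranked 1 among all genes in rDM in donors A and B and 3 in donor C, where the highest gene stood at 40718 CPM. With reads thinned to the number in the smallest library, FABP4 ranked 1, 2 and 3 in rDM in donors A, B and C. Its rank was 3, 2 and 3 without HC/PR and 3, 5 and 3 without insulin in donors A, B and C. Without rosiglitazone its rank was 995 of the 10518 genes with a read in donor A, 695 of 9077 in donor B and 442 of 10063 in donor C. The transcript matched to FABP4 in the uncorrected files, described further on, ranked 481, 269 and 2057 among transcripts in these 3 libraries, so donor C had the best rank after batch correction and the worst before it. By the mean over donors, FABP4 held rank 2 in rDM, 3 in both rDM 0% HC/PR and rDM 0% Ins, and 619 in rDM 0% Ros.

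**Figure D2:**
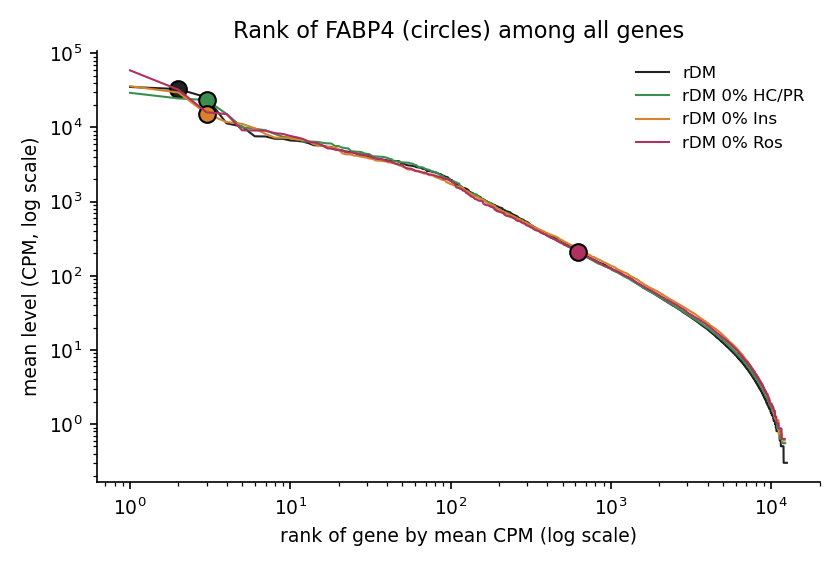
Mean level of every gene in CPM against its rank, both on log axes, with 1 line per medium and a circle for FABP4. The curves of the 4 media lie close together, and the circle moves from rank 2 in rDM to rank 619 without rosiglitazone.

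To ask how much of FABP4 depended on each inducer, each deprived medium was compared with rDM of the same donor. Changes were tested with limma on log2(CPM + 1) over the 9267 genes that reached 5 CPM in 3 or more libraries, with the donor as a block, and a gene was called at a Benjamini-Hochberg adjusted p under 0.05. The libraries had been corrected together before this test, so they are not independent of each other in it. All 3 comparisons also share the same rDM libraries.

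Without rosiglitazone, FABP4 was 258-fold lower than rDM in donor A, 195-fold lower in donor B and 97.8-fold lower in donor C. The counting intervals of these ratios were 203 to 327, 150 to 252 and 82.0 to 117. The fall was smallest in donor C in this table, an order that the uncorrected reads do not share. Before correction the matched transcript, described further on, was 142-fold, 48.6-fold and 549-fold lower in donors A, B and C. Each of these values lay outside the counting interval of its donor, which does not cover the correction. The log2 fold change was -7.40 (standard error 0.27, 95% interval -7.98 to -6.82, limma adjusted p = 3.13e-09), and 5.07% of the genes tested were called in this comparison. FABP4 had the smallest p of all 9267 genes and the fifth largest fall. That p rests on a spread pooled over the 4 media, as described further on. Without the mean-variance trend of limma the adjusted p was 1.33e-04 (limma). The 4 genes with larger log2 falls, from -10.36 to -7.55, were less abundant, with means of 419.6 to 2587 CPM in rDM and 0.632 to 12.9 CPM without rosiglitazone. In 3 of these 4 genes at least 2 rosiglitazone-free libraries were at 0, so their falls, and the place of FABP4 behind them, depend on the pseudocount. Among the 168 genes with a mean of at least 1000 CPM in rDM, the median log2 change was -0.18, 25 genes (14.9%) lay below -1, and FABP4 had the third largest fall.

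Without insulin, FABP4 was 2.05-fold lower than rDM in donor A, 3.52-fold lower in donor B and 1.57-fold lower in donor C. The log2 fold change was -1.17 (standard error 0.27, 95% interval -1.75 to -0.59). Its limma adjusted p of 0.0496 was just under the threshold, and it was 0.296 when the mean-variance trend of limma was left out. In this comparison 1.51% of the genes tested, or 140 genes, were called, and FABP4 was the last of them by p. By size of fall its place was 584 among all genes tested, and 16 among the 168 abundant genes, of which 17 (10.1%) lay below -1. The call was lost in 8 of the 9 fits that left out a library of this comparison or a donor, the exception being the fit without donor A of rDM 0% Ins. The log2 fold change was -0.87 (limma adjusted p = 0.253) without donor B of rDM 0% Ins and -1.27 (limma adjusted p = 0.155) without donor C of that medium. Without the rDM library of donor A, B or C it was -1.07, -1.03 and -1.40 (limma adjusted p = 0.208, 0.279 and 0.0796). With 140 genes called in the fit of all libraries, between 10 and 159 were called in these 9 fits. The unadjusted p was 7.49e-04 with all libraries and 5.07e-04 to 0.0130 in these 9 fits (limma). The calls were thus lost after the adjustment over all genes. In the uncorrected transcript matched to FABP4, described further on, the unadjusted p was 0.0799 (limma).

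Without HC/PR, FABP4 was 1.55-fold lower than rDM in donor A, 1.39-fold in donor B and 1.30-fold in donor C. This was the narrowest range of the 3 comparisons, and the libraries of both media did not overlap. All 3 HC/PR-free libraries lay below all 3 rDM libraries in 7.88% of the genes tested. The log2 fold change was -0.50 (standard error 0.27, 95% interval -1.08 to 0.08) and did not pass the test (limma adjusted p = 0.938), in a comparison that called 0.0216% of the genes tested. By size of the log2 decrease, FABP4 took place 1772 among all genes tested and place 22 among the 168 abundant genes. The interval reaches from a decrease of over 1 on the log2 scale to no change. Fitted on the 6 libraries of this comparison alone, the standard error was 0.12 and the interval -0.77 to -0.23, and the limma adjusted p was 0.328. In 3 donors an exact sign test, two-sided, cannot go below p = 0.25, and an exact permutation test of 3 libraries against 3 cannot go below 0.1.

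**Figure D3:**
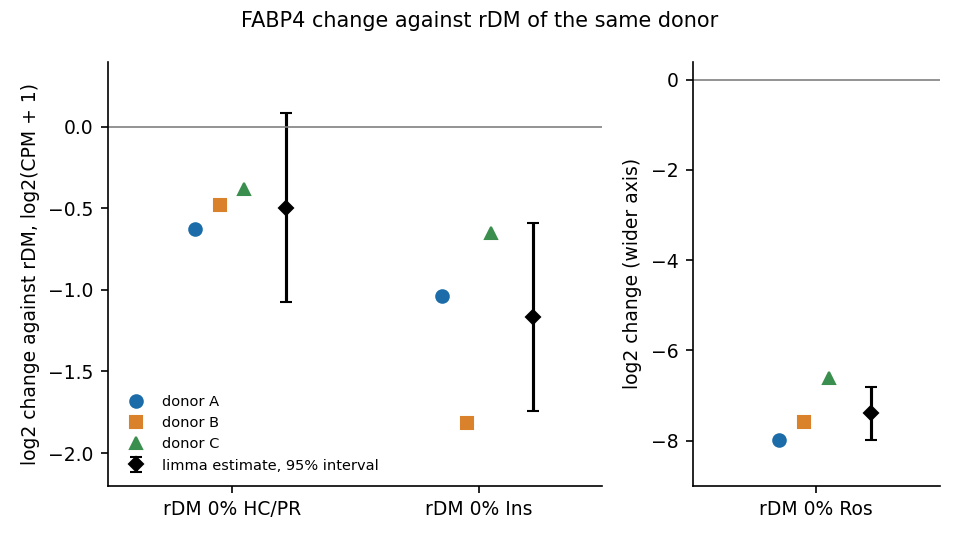
log2 change of FABP4 against rDM on the log2(CPM + 1) scale, with 1 coloured point per donor and a black diamond with its 95% interval from limma, on a wider axis for rDM 0% Ros. Every donor lies below 0 in each deprived medium, and the interval includes 0 without HC/PR, where it runs from -1.08 to 0.08.

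The 4 media were then set in the order of their FABP4 levels, which was rDM, rDM 0% HC/PR, rDM 0% Ins and rDM 0% Ros in each donor. No 2 media overlapped. The highest insulin-free library, donor C at 20272 CPM, lay 1213 CPM below the lowest HC/PR-free library, donor A at 21485 CPM. All 3 insulin-free libraries lay below all 3 HC/PR-free libraries in 6.58% of the genes tested, and all 3 rosiglitazone-free libraries below all 3 insulin-free ones in 11.6%. The whole order without any overlap was seen in 21 of the 9267 genes (0.227%). The order was taken from FABP4 itself and other orders were not counted, so this share is a description and no test.

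Between neighbours in this order, the test separated only rDM 0% Ins from rDM 0% Ros. FABP4 was 126-fold lower in rDM 0% Ros than in rDM 0% Ins of donor A, 55.3-fold lower in donor B and 62.4-fold lower in donor C. The log2 fold change was -6.23 (standard error 0.27, limma adjusted p = 2.95e-08), where 2.07% of the genes tested were called. Between rDM 0% HC/PR and rDM 0% Ins, FABP4 was 1.325-fold, 2.525-fold and 1.203-fold higher in the former in donors A, B and C. The log2 difference was 0.67 (standard error 0.27, 95% interval 0.09 to 1.25), with a limma adjusted p of 0.312, and 1.12% of the genes were called. For these 2 media, as for rDM and rDM 0% HC/PR, the difference did not pass the test over all genes. Between rDM 0% HC/PR and rDM 0% Ros the log2 difference was 6.90 (standard error 0.27, limma adjusted p = 7.82e-09), with 2.55% of the genes called. The unadjusted p-values of FABP4 were also adjusted over its 6 contrasts alone (limma). That between rDM 0% HC/PR and rDM 0% Ins was then 0.0319 (limma). Those of rDM against rDM 0% Ins and against rDM 0% HC/PR were 0.00112 and 0.0868 (limma). The 0.0319 came from an unadjusted p of 0.0266, which was 0.00967 on the 6 libraries of both media alone (limma). It was 0.0957 with the sequencing pool added, 0.110 without the mean-variance trend and 0.263 without donor B (limma). This contrast was thus not under 0.05 in each fit, even unadjusted.

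**Figure D4:**
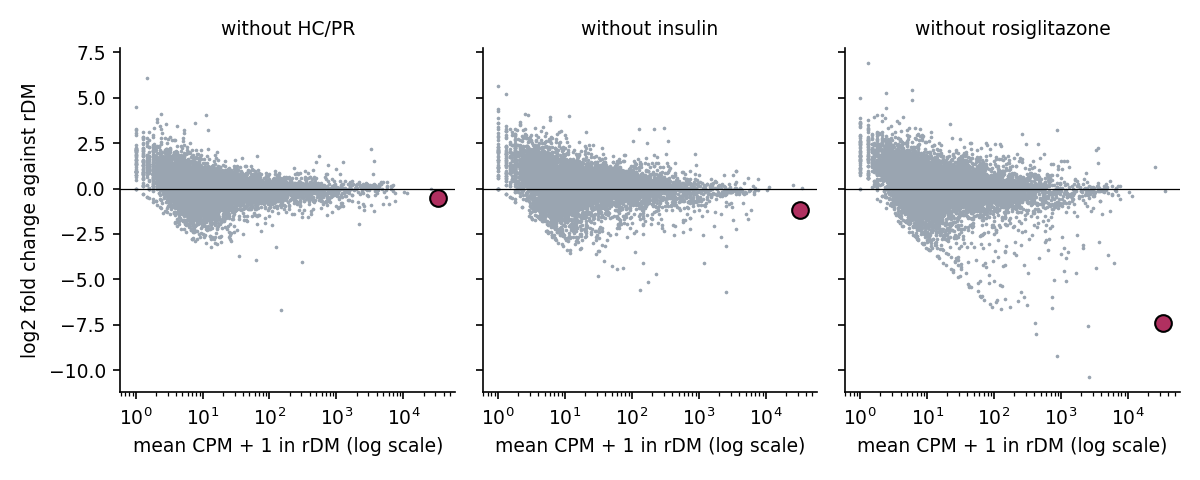
log2 fold change against rDM for the 9267 genes tested (grey points) plotted against their mean CPM + 1 in rDM on a log axis, with FABP4 as a red circle, in 1 panel per deprived medium. FABP4 lies at the right edge of each panel, at -0.50 in the HC/PR-free panel, -1.17 in the insulin-free panel and -7.40 in the rosiglitazone-free panel.

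The spread between donors was described but not tested. In the corrected table, on the log2(CPM + 1) scale, the SD over donors was 0.05 in rDM and 0.11 without HC/PR, against 0.55 without insulin and 0.68 without rosiglitazone. The highest library was 1.07 times the lowest in rDM, 1.14 times without HC/PR, 2.10 times without insulin and 2.52 times without rosiglitazone. limma pools the spread over the 4 media, so its interval for rDM 0% HC/PR is also set by the wider spread of the other media.

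The donors are read here after the batch correction, and a transcript was used to see FABP4 before it. The authors also deposited uncorrected estimated reads for 38030 transcripts, none of which is paired with a gene in the tables used here. In the 9 libraries with rosiglitazone, 1 transcript, ENSBTAT00000000079.4 with a length of 754 bases, stayed within 1.5 times the level of FABP4, with a largest difference of 1.201 times. The next transcript differed by 3.00 times in at least 1 library, and no other gene of the corrected table came within 1.5 times of this transcript. The match rests on levels alone and was made after they were seen. The likeness of both in these 9 libraries, and so of their changes without insulin and without HC/PR, was largely fixed by this choice and is no check of the corrected values.

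Before correction, this transcript stood at 35670, 28273 and 31350 CPM in rDM in donors A, B and C, and at 23647, 21292 and 22515 CPM without HC/PR. It stood at 18353, 10125 and 17836 CPM without insulin, where donor B was again the lowest. Without rosiglitazone it stood at 251.0 CPM in donor A, 581.8 CPM in donor B and 57.1 CPM in donor C, from 135, 194 and 23 estimated reads. The order of the donors differed before and after the correction in each medium. Donor A was above donor B before it and below it after it in rDM and in rDM 0% HC/PR. Without insulin, donors A and C changed places. Donor C without rosiglitazone was the lowest of the 3 before it and the highest after it, when its level was 5.69 times as high. In donors A and B of that medium the corrected level was 0.514 and 0.300 times the uncorrected one. In the other 9 libraries the corrected level was 0.883 to 1.201 times the uncorrected one.

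In the uncorrected files the transcript was 142-fold lower without rosiglitazone than in rDM in donor A, 48.6-fold in donor B and 549-fold in donor C. Its SD over donors on the log2 scale was 0.17 in rDM, 0.08 in rDM 0% HC/PR, 0.48 in rDM 0% Ins and 1.68 in rDM 0% Ros, against 0.05, 0.11, 0.55 and 0.68 for FABP4 in the corrected table. The smallest spread was thus in rDM only after the correction, and in rDM 0% HC/PR before it. The transcript fell by 7.27 on the log2 scale without rosiglitazone (limma adjusted p = 3.78e-05, with the donor as a block). Without insulin and without HC/PR its log2 fold changes were -1.08 and -0.49, and neither passed the test (limma adjusted p = 0.606 and 1.00). Donor by donor, the transcript was 1.94-fold, 2.79-fold and 1.76-fold lower without insulin in donors A, B and C. Whether the medium was given to the batch correction is not stated in the sources used here, and its part in the donor order was not tested.

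**Figure D5:**
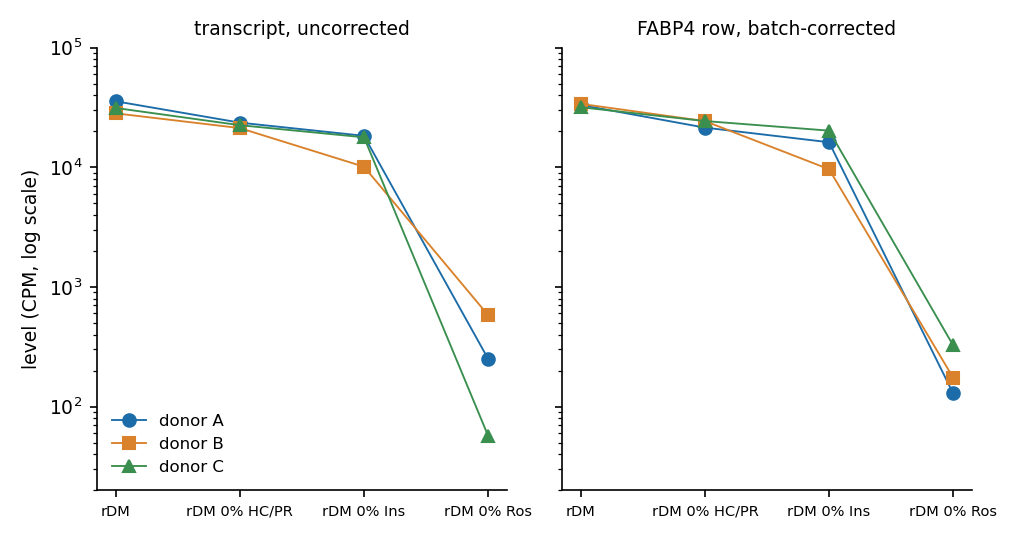
Level in CPM (log axis) of the transcript matched to FABP4 in the uncorrected files (left) and of the FABP4 row in the batch-corrected table (right), with 1 line per donor across the 4 media. Without rosiglitazone donor C is the lowest on the left, at 57.1 CPM, and the highest on the right, at 325.1 CPM.

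The libraries were sequenced in 2 pools. All libraries of donor A were in the first pool and all of donor C in the second, so the changes of these donors were each measured within 1 pool. In donor B, rDM and rDM 0% Ins were in the first pool and the other 2 media in the second. With the pool added to the donor in the fit, the log2 fold change was -7.52 without rosiglitazone (limma adjusted p = 4.94e-08), -1.17 without insulin (limma adjusted p = 0.0611) and -0.61 without HC/PR (limma adjusted p = 1.00).

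Finally, the genes whose pattern was most like that of FABP4 were sought by the Pearson correlation of log2(CPM + 1) over the 12 libraries, among 4131 other genes with a mean of at least 20 CPM. These correlations are given as a description, since all genes share the same libraries, media and correction. The median correlation was -0.01, and 78 genes (1.89%) exceeded 0.9. The most alike was ENSBTAG00000010336 (r = 0.99), at 633.7 ± 30.0 CPM in rDM, 525.8 ± 24.7 in rDM 0% HC/PR, 449.2 ± 54.0 in rDM 0% Ins and 193.5 ± 14.2 in rDM 0% Ros (SD, n = 3 each). It kept the order of the media but with far smaller steps than FABP4. The second was ENSBTAG00000010265 (r = 0.98), at 6139 ± 604 CPM in rDM, 3432 ± 614 in rDM 0% HC/PR, 2722 ± 578 in rDM 0% Ins and 365.0 ± 92.0 in rDM 0% Ros (SD, n = 3 each). The least alike were ENSBTAG00000007818 and ENSBTAG00000044097, both with r = -0.95. The first was at 149.1 ± 11.1 CPM in rDM and 322.2 ± 15.6 without rosiglitazone, and the second at 30.0 ± 2.44 and 64.7 ± 5.09 CPM (SD, n = 3 each). Their high values were found in the medium where FABP4 was lowest, while their means in the other 3 media lay between 142.9 and 155.6 CPM and between 28.5 and 35.9 CPM. By Spearman's rho, ENSBTAG00000007818 and ENSBTAG00000044097 were at -0.70 and -0.84, against a lowest of -0.97 over the genes compared. All genes given here by identifier have no name in the tables used here.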

How the data were processed

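The authors reverse-transcribed mRNA, amplified the cDNA by PCR, sequenced it as long Nanopore reads, mapped the reads to the bovine transcriptome (ARS-UCD1.2) with Minimap2 and quantified them with Salmon. They deposited the estimated counts per transcript of each library, with transcript lengths, without batch correction. The deposited CPM table per gene was made with tximport and ComBat-seq, which corrected for the 3 batches. All 12 of its columns were mapped to libraries by medium and isolation letter, and 0 columns were left over. Of its values, 100% were whole multiples (within 0.001) of the smallest value above 0 in their column, so reads were recovered. They made up 94.7% to 98.3% of the 302754 to 1153853 estimated reads per library.

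limma 3.58.1 (R 4.3.3) was run on log2(CPM + 1) with a mean-variance trend, medium and donor as terms and all 12 libraries, over genes reaching 5 CPM in 3 or more libraries. The trend was chosen after a trial on simulated data, in which the test without it made no right call. The trial gave all genes the same spread and held no batch correction. In these data the test without the trend called 210 genes without rosiglitazone. The trial therefore does not show which fit suits them. Fold changes on this scale understate those of low genes. The donor block comes from the labels, where each replicate letter is 1 batch. In the uncorrected transcripts all 18 pairs of libraries from 1 donor had correlated deviations from their medium's mean, from 0.194 to 0.593. In the corrected table, on which limma was run, these correlations lay between -0.345 and 0.0411. Alternatives used edgeR 4.0.16 and DESeq2 1.42.0 on recovered reads, and estimated counts rounded to whole numbers. The tests were tested on simulated data.

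FABP4 and the gene lists were chosen with earlier results of these data known. Genes were named by their correlation with FABP4, at most 2 at each end, since 0 of the 22372 identifiers could be paired with a symbol. The 93 listed symbols of fatty acid handling, regulators, cell type markers and reference genes were for the same reason not analysed here. Where labels do not name separate cultures beyond the isolation, the replicates are these 3 donors. In the main limma fit the donor is a block, so its p-values do not measure the spread between donors as such. They rest on how the differences between media vary among these donors, pooled over the media. No sequence is printed.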

Additional observations from a re-analysis of the deposited data

How the results depend on the processing

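The fall without rosiglitazone, and the differences between rDM 0% Ros and the other 2 deprived media, passed the threshold in each of the 17 alternatives and of the 9 fits without 1 library or donor. The 17 include limma and edgeR fits of the uncorrected transcript, which was matched to FABP4 by level alone. All others used the same batch-corrected values. The log2 fold change without rosiglitazone ranged from -7.52 to -6.99 over the alternatives and from -7.80 to -7.10 over the fits with a library or donor left out. The change without HC/PR, and that from rDM 0% Ins to rDM 0% HC/PR, kept their direction and stayed above the threshold in all 26 of these fits. Without insulin, the call was kept in 11 of 17 alternatives. With a replicate block plus library pool the log2 fold change was -1.17 (adjusted p = 0.0611), with a pseudocount of 0.1 it was -1.17 (adjusted p = 0.0941), and with TMM factors it was -1.40 (adjusted p = 0.0643), all from limma. TMM moved the median change (log2) over the genes tested without insulin from 0.19 to -0.02. In the alternatives chosen after seeing the data, it was -1.17 (adjusted p = 0.296) in limma without the mean-variance trend, and in the uncorrected transcript, which was matched on the libraries of this comparison, -1.08 (adjusted p = 0.606) in limma and -1.25 (adjusted p = 0.598) in edgeR. Over the alternatives the adjusted p ran from 0.00053 in DESeq2 to 0.606. Leaving out a library or donor gave -1.42 to -0.84. The cause was not tested. The value with no replicate block was -1.17 (limma adjusted p = 0.0453). Leaving out the block changed no call of FABP4 in limma. It raised the number of genes called without insulin from 140 to 296 and without rosiglitazone from 470 to 742. Of the 20 genes most like FABP4, 17 were shared when values were centred within donors, 12 when only genes averaging 100 CPM or more were used and 3 with Spearman's rho. The alternative that needed a table pairing the gene with its transcripts was not run.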

Other observations

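Because CPM values are shares of a fixed total, the level of FABP4 bears on the values of all other genes. Its mean was 32778 CPM lower without rosiglitazone than in rDM, and the next largest decrease in mean of a single gene was 5774 CPM. With library totals counted without FABP4, the median change over the genes tested (log2, without rosiglitazone) was 0.06 in place of 0.10, and 468 genes were called in place of 470 (limma). Without insulin the median was 0.17 in place of 0.19, and 143 genes were called in place of 140.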
